A study of Mus musculus with 32 samples.

Results

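Fgf21, the gene of the hormone fibroblast growth factor 21, and the genes of its receptor complex (Klb, Fgfr1, Fgfr2, Fgfr3 and Fgfr4) were followed across all 32 liver arrays of the series. The members were the array's genes that carry one of these 6 symbols, out of 34947 genes, and they were measured by 12 of 55681 probes. Livers of male C57BL/6 mice, 8 weeks old at the start, were hybridised to one-colour Agilent mouse arrays, with 4 biological replicates in each of 8 groups, to ask how a GLP-1 receptor agonist acts in diet-induced fatty liver disease and after partial hepatectomy (PH), the surgical removal of 70% of the liver. Before PH there were 4 groups. C mice ate chow and received vehicle, and MCD mice ate a methionine- and choline-deficient diet for 3 weeks and received vehicle. C+Fc-GLP-1 mice ate chow and received Fc-GLP-1, a GLP-1 receptor agonist fused to an Fc fragment, during the last 2 weeks, and M+Fc-GLP-1 mice received it on the MCD diet. As the paper describes it, the other 4 groups kept the same diet and treatment. They were examined 2 weeks after PH, so they hold only mice that were alive then. All mice were wild type. The labels contradict themselves on the drug. Group names give Fc-GLP-1, whereas the shared protocol names a dual GLP1R/GCGR agonist at 4.4 mg/kg/day. The source label of C+Fc-GLP-1 after PH also names Fc-GLP-1 before PH and a dual agonist after it. The groups are called here by their names.

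FGF21 is secreted mainly by hepatocytes and acts on cells that carry an FGF receptor together with beta-Klotho, the co-receptor encoded by Klb. Its transcription is known to respond to PPAR alpha, the nuclear receptor of fasting and fatty acids, and to ATF4, the transcription factor of the amino acid and endoplasmic reticulum stress response. FGFR4 is the main FGF receptor of hepatocytes, where together with beta-Klotho it receives the intestinal hormone FGF15 and restrains bile acid synthesis, and FGFR1 with beta-Klotho is the chief FGF21 receptor of adipose tissue. FGFR2 and FGFR3 can also pair with beta-Klotho.

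In GRCm38, Fgf21 (Entrez gene 56636) lies on the minus strand of chromosome 7 at chr7:45613890-45615490. The 250 bases before its start site (RefSeq, GRCm38.p6, chr7:45615491-45615740) are shown because the gene moved most of all members. Capitals mark a C/EBP-ATF response element, or CARE, the composite site to which ATF4 binds (TGATGNAAN, read on either strand), and a TATA box (TATAAA).

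Fgf21: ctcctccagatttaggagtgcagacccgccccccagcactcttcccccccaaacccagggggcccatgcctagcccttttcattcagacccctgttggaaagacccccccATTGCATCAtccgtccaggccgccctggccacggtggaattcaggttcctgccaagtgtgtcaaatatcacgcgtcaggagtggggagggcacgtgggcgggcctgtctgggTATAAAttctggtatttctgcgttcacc

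The CARE match stood at -140 to -132 from the start site on the opposite strand and the TATA box at -28 to -23. A CARE match was found in 3.44% of the 32851 promoters of the same length and a TATA box in 12.4%. The window also held 1 E-box (CACGTG, found in 6.02% of promoters) and no direct repeat of the PPAR type (AGGTCA, any base, then AGGTCA again, in 0.0335%) or full cyclic AMP element (TGACGTCA, in 1.55%). The searched motifs did not overlap each other there. Of the 6 members, 5 had an upstream window in the table (Fgfr1 had none), and no CARE, TATA box, E-box, direct repeat or cyclic AMP element was found in those of Klb, Fgfr2, Fgfr3 and Fgfr4. These matches are letters in a sequence, and binding was not measured.

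Between 36.3% and 69.2% of the probes of an array were well above background, and the 75th percentile of signal ranged from 209.4 to 778.4 intensity units. All levels below are log2 signal minus that percentile of the same array, so 0 marks the percentile itself, and levels of different probes were not compared. A probe was tested where each of the 4 arrays of some group showed it well above background. All 6 genes passed with 11 of their 12 probes, each of these detected on all 32 arrays and saturated on none, and the other Fgfr3 probe was detected on 3 arrays. The hepatocyte list, of which 9 of 10 markers were tested, summed to between 2520 and 5570 times the percentile on every array. The arrays came from 5 slides. Each slide held 1 or 2 groups, so 3 comparisons lay within a slide: MCD against C before PH, and M+Fc-GLP-1 against C+Fc-GLP-1 before and after PH. In all others the slide and the comparison cannot be told apart, and the C and MCD arrays after PH were also scanned on another scanner than the rest.

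Fgf21 had the widest range of the members. Its group means spanned 7.82 log2 units, or 226-fold, from C after PH to MCD before PH, a range wider than that of 99.9% of the 21073 genes tested. The spans of Fgfr3 (1.61), Fgfr1 (1.14), Klb (1.06), Fgfr4 (1.02) and Fgfr2 (0.69) were wider than those of 74.5%, 48.4%, 42.6%, 39% and 12.7% of genes. In descending order, the Fgf21 means of the 4 MCD-fed groups came first, and neighbours overlapped within those groups and within the 4 chow-fed groups, while the lowest MCD-fed and the highest chow-fed group did not overlap.

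**Figure D1:**
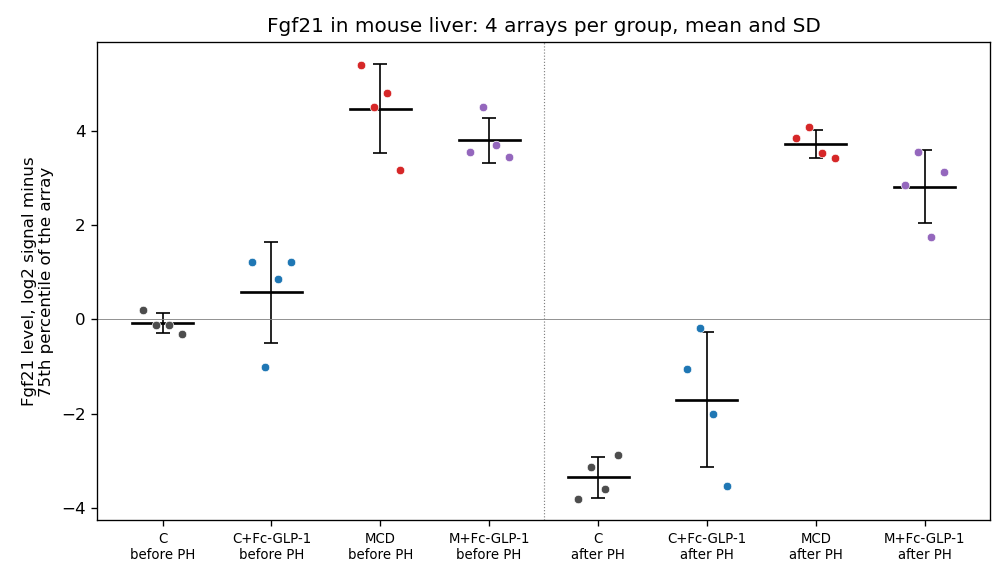
Fgf21 level of each array (log2 signal minus the array's 75th percentile, vertical axis) in the 8 groups; points are single arrays, lines the mean and bars the SD of 4. All 16 MCD-fed livers lie above all 16 chow-fed livers, whose levels run from -3.80 to 1.22.

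Before PH, the MCD diet raised Fgf21 strongly. The 4 C livers gave levels of 0.20, -0.12, -0.11 and -0.31 (mean -0.09 ± 0.21, SD, n = 4). The 4 MCD livers gave 5.40, 4.51, 4.8 and 3.17 (mean 4.47 ± 0.94). Every MCD liver was above every C liver, with replicate 4 the lowest of its group. The difference was 4.56 ± 0.54 (SE), a 23.5-fold higher level (limma over the 8 groups, Benjamini-Hochberg adjusted p = 8.41e-07). It was the only member of the 6 past the threshold of 0.05, in a comparison in which 26.4% of all genes passed. In bulk liver, fewer cells of a type and less RNA per cell cannot be told apart. The summed macrophage markers (8 of 8 tested) ranged from 57.2 to 103 in C and from 115 to 323 in MCD, and the hepatocyte sum from 3800 to 5260 and from 3110 to 3400. The stellate cell and fibroblast sum ranged from 11 to 15.3 in C and from 18.3 to 21.8 in MCD. The endothelial sum ranged from 51.3 to 67.5 and from 69 to 87.8. The part of these cells in the difference was not tested.

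Under Fc-GLP-1, the MCD diet again went with higher Fgf21 before PH. The 4 C+Fc-GLP-1 livers had levels of 1.21, -1.0, 0.86 and 1.22 (mean 0.57 ± 1.06). The 4 M+Fc-GLP-1 livers had 3.56, 4.50, 3.70 and 3.45 (mean 3.80 ± 0.48). The groups did not overlap, and the level was 9.39-fold higher (log2 difference 3.23 ± 0.54, adjusted p = 0.000143). Fgf21 was again the only member called, against 10.4% of all genes. Macrophage marker sums overlapped here (72.6 to 127 in C+Fc-GLP-1, 45.3 to 109 in M+Fc-GLP-1). The stellate cell and fibroblast sums did not (13.7 to 15 in C+Fc-GLP-1, 9.49 to 12.2 in M+Fc-GLP-1), and their part was not tested.

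The comparison of drug with vehicle before PH gave no call for Fgf21 on either diet. In MCD-fed livers the difference was -0.67, with a 95% confidence interval from -1.76 to 0.43 (adjusted p = 0.471), and the groups overlapped. In chow-fed livers it was 0.66, with an interval from -0.44 to 1.75 (adjusted p = 0.54). The difference between these 2 effects was -1.33 (interval -2.87 to 0.22, adjusted p = 0.287, in a contrast that called 6.15% of all genes). These intervals leave room for a change of more than 2-fold, downward on the MCD diet or upward on chow. All genes were called in 7.22% (MCD) and 2.11% (chow) of cases.

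After PH, Fgf21 was lowest in C livers and remained high in MCD livers. The C livers gave -3.80, -3.12, -3.60 and -2.87 (mean -3.35 ± 0.43). The MCD livers gave 3.85, 4.08, 3.52 and 3.42 (mean 3.72 ± 0.30). The groups lay far apart, at a 134-fold difference (log2 7.06 ± 0.54, adjusted p = 5.3e-10). Here Fgf21 and Klb were called, 2 of 6 members, against 12.1% of all genes. The macrophage sums of these groups overlapped (125 to 570 in C, 210 to 467 in MCD), whereas the stellate cell and fibroblast sums (10 of 11 markers tested) lay at 20.6 to 85 in C and 11.4 to 19.4 in MCD, and their part was not tested.

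With Fc-GLP-1 after PH, C+Fc-GLP-1 livers scattered widely. Their Fgf21 levels were -1.06, -0.19, -2.0 and -3.54 (mean -1.70 ± 1.43), and replicate 4 lay within the range of C. The M+Fc-GLP-1 livers gave 2.84, 3.56, 1.75 and 3.12 (mean 2.82 ± 0.77). All were above the C+Fc-GLP-1 livers, with a 22.8-fold difference (log2 4.51 ± 0.54, adjusted p = 1.07e-06). In this comparison Fgf21, Fgfr3 and Fgfr4 were called, 3 of 6 members, against 12.8% of all genes. The lymphocyte sums (7 of 8 markers tested) lay at 8.32 to 11.2 in C+Fc-GLP-1 and at 5.55 to 7.41 in M+Fc-GLP-1. The macrophage, endothelial, and stellate cell and fibroblast sums overlapped, and the part of these cells was not tested.

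The drug comparisons after PH gave no call for Fgf21 in the fit of all arrays. On chow the level was 1.65 higher with Fc-GLP-1 (interval 0.55 to 2.74, unadjusted p = 0.00449, adjusted p = 0.106), and leaving out C+Fc-GLP-1 replicate 4 gave 2.26 with an adjusted p of 0.0192. On the MCD diet the difference was -0.90 (interval -2.0 to 0.19, adjusted p = 0.33). The difference between the 2 drug effects was -2.55 (interval -4.10 to -1.0, adjusted p = 0.241), in a contrast in which 0% of all genes were called by limma and 1835 had an unadjusted p under 0.05. Genes were called in 2.06% (chow) and 6.5% (MCD) of cases in the drug comparisons themselves.

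Livers examined after PH were set against livers of the same diet and treatment before PH. The 2 times always lay on different slides, and in C and MCD also on different scanners, so these cannot be told apart from time. For the Fc-GLP-1 groups the paper describes the samples before PH as liver removed at the surgery. The same mice may thus have given both samples, and the fits treated them as independent. In C, Fgf21 was 9.58-fold lower after PH (log2 difference -3.26 ± 0.54, adjusted p = 0.000318), with no overlap, and 14% of all genes were called. In the same comparison all 8 macrophage markers were called higher after PH (sums of 57.2 to 103 before and 125 to 570 after) and the stellate cell and fibroblast sums lay at 11 to 15.3 before and 20.6 to 85 after, and their part was not tested. In C+Fc-GLP-1 it was lower by 4.82-fold (-2.27 ± 0.54, adjusted p = 0.039, 0.835% of genes called), with overlap, and this call was lost when any array but replicate 2 of either group was left out (6 of 8 fits, adjusted p from 0.0661 to 0.121) and with only these groups in the fit (adjusted p = 0.171). In MCD the difference was -0.75 (adjusted p = 0.42, 9.43% of genes called) and in M+Fc-GLP-1 -0.98 (adjusted p = 0.372, 1.71% of genes called). The test of whether the diet effect differed between the 2 times gave 2.51 without the drug (interval 0.96 to 4.06, adjusted p = 0.0652; 0.0236 with only the groups compared) and 1.28 with it (adjusted p = 0.602), against 2.85% and 0.0949% of all genes called.

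**Figure D2:**
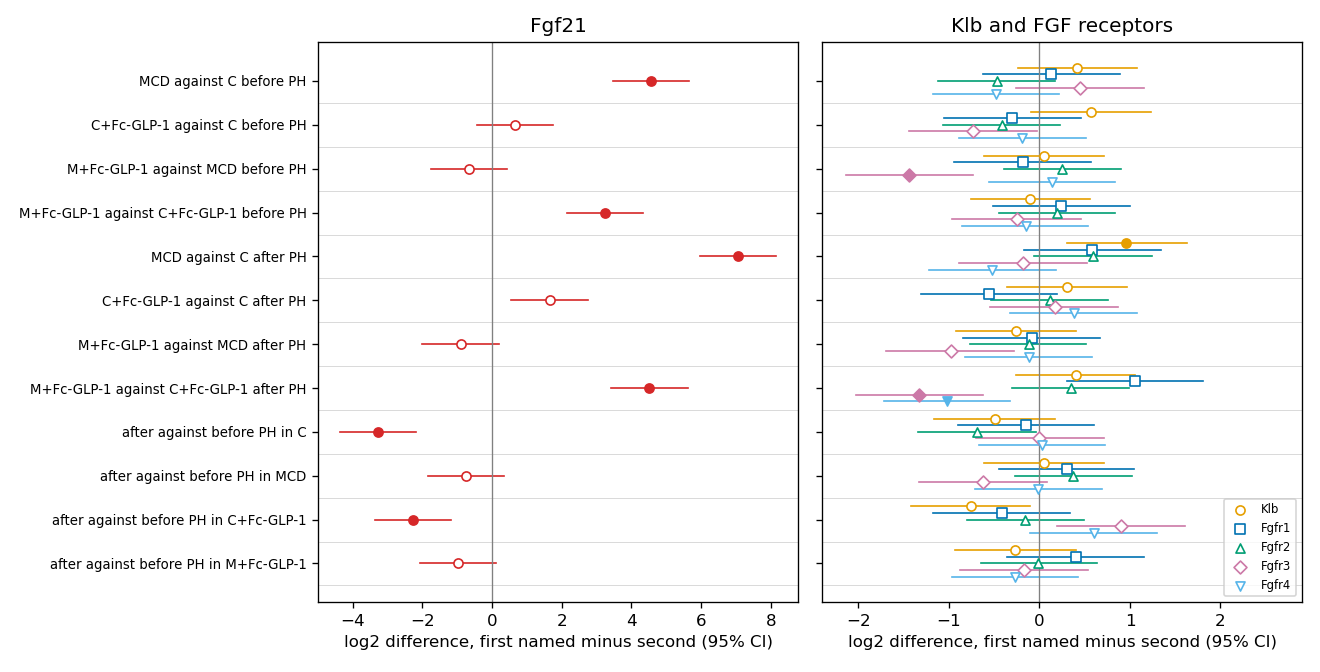
Log2 difference of each member in the 12 comparisons of groups (horizontal axis, first named group minus second; bars, 95% confidence interval; filled symbols, adjusted p under 0.05), with Fgf21 on the left and Klb and the FGF receptors on the right, on different scales. Fgf21 reaches 7.06, whereas no receptor difference lies further from 0 than the -1.44 of Fgfr3.

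Klb, on chromosome 5 (chr5:65348411-65386957, Entrez gene 83379), encodes the co-receptor that makes FGF receptors responsive to FGF21. Its means ran from 1.88 in C after PH to 2.95 in C+Fc-GLP-1 before PH, and neighbours in this order overlapped throughout. After PH the C livers had 1.44, 1.5, 2.68 and 1.92, and the MCD livers had 2.68, 2.86, 2.83 and 3.03. The higher level in MCD, by 0.96 ± 0.32 or 1.95-fold, passed narrowly (adjusted p = 0.0484), and C replicate 3 touched the MCD range. The call was lost in 7 of the 8 fits that left out 1 array, all but that without C replicate 3, and in 4 of the 8 other settings, at differences of 0.81 to 1.08 and adjusted p from 0.0536 to 0.146. Before PH the same diet comparison gave 0.42 (interval -0.24 to 1.08, adjusted p = 0.346). Over the 32 arrays Klb had a Pearson correlation of 0.59 with Fgf21, and of 0.26 after the group means were taken out, as a description of arrays that share groups and slides.

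Fgfr1 (chr8:25518759-25575718, Entrez gene 14182), the main partner of beta-Klotho outside the liver, was not called by its brightest probe in any comparison. The nearest was M+Fc-GLP-1 against C+Fc-GLP-1 after PH. The C+Fc-GLP-1 livers had 1.74, 2.04, 2.05 and 0.45, and the M+Fc-GLP-1 livers had 2.95, 2.10, 2.57 and 2.9. All of the latter were higher, by 1.06 ± 0.37 on average (adjusted p = 0.0568). The 3 Fgfr1 probes gave 1.06, 0.80 and 1.10 in that comparison, and the latter 2 passed when all probes were tested (adjusted p = 0.0236 and 0.0374). Their mean gave 0.99 (adjusted p = 0.00118). The probe at 0.80 also passed after against before PH in C, at -0.76 (adjusted p = 0.0317).

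Fgfr2 (chr7:130162451-130266808, Entrez gene 14183) was not called by limma in any of the 16 tests. Its means ran from -0.45 in C after PH to 0.24 in C before PH, and neighbouring groups overlapped. That difference after against before PH in C, -0.69 (interval -1.34 to -0.04), had an adjusted p of 0.139, and 2 of the 16 tests had an unadjusted p under 0.05. Over all 21073 genes, 1835 to 8157 had such a p in each of these tests.

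Fgfr3 (chr5:33721724-33737068, Entrez gene 14184) was called lower in M+Fc-GLP-1 livers by its brightest probe in 2 of the 4 comparisons of these livers with others of the same time. Before PH the MCD livers had 3.52, 3.76, 3.45 and 3.28, and the M+Fc-GLP-1 livers had 1.86, 2.31, 1.64 and 2.46. The groups did not overlap, and the level was 2.71-fold lower with the drug (log2 difference -1.44 ± 0.35, adjusted p = 0.0125), the only member called in this comparison. The macrophage marker sums (115 to 323 in MCD, 45.3 to 109 in M+Fc-GLP-1) and the stellate cell and fibroblast sums (18.3 to 21.8 and 9.49 to 12.2) separated in the same direction, and their part was not tested. After PH the M+Fc-GLP-1 livers had 1.51, 0.82, 3.08 and 2.16 against 2.78, 3.39, 3.61 and 3.11 in C+Fc-GLP-1. They overlapped through replicate 3, and the difference was -1.33 ± 0.35 (adjusted p = 0.0101). The matching comparisons at the other time did not pass: M+Fc-GLP-1 against MCD after PH gave -0.98 (adjusted p = 0.0832) and M+Fc-GLP-1 against C+Fc-GLP-1 before PH gave -0.25 (adjusted p = 0.706). The second tested Fgfr3 probe gave -0.01 (adjusted p = 0.993) and -0.09 (adjusted p = 0.913) in the 2 comparisons that passed, and with the mean of both probes neither call held (-0.72, adjusted p = 0.0774; -0.71, adjusted p = 0.0619). The calls of Fgfr3 thus rested on 1 probe. The call before PH was also lost without M+Fc-GLP-1 replicate 3 (-1.29, adjusted p = 0.0511), and that after PH without M+Fc-GLP-1 replicate 2 (-0.97, adjusted p = 0.067) and with only the groups compared (-1.33, adjusted p = 0.0834).

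Fgfr4 (chr13:55152818-55168759, Entrez gene 14186), the hepatocyte receptor of the bile acid pathway, tended to the opposite order from Fgf21 (Pearson correlation -0.55 over the 32 arrays, -0.33 without group means, as a description). After PH the C+Fc-GLP-1 livers had 4.41, 4.91, 4.76 and 4.19, and the M+Fc-GLP-1 livers had 3.31, 2.47, 4.54 and 3.86. The groups overlapped through M+Fc-GLP-1 replicate 3, and the difference of -1.02 ± 0.34 passed narrowly (2.03-fold, adjusted p = 0.0458). The call was lost in 5 of the 8 fits without 1 array (C+Fc-GLP-1 replicate 1, 2 or 3, or M+Fc-GLP-1 replicate 1 or 2, at -1.08 to -0.66), in the authors' normalized values (adjusted p = 0.116) and in 3 other settings. The other Fgfr4 probe passed instead in the diet comparisons before PH, at -0.77 in MCD against C (adjusted p = 0.037) and -0.89 in M+Fc-GLP-1 against C+Fc-GLP-1 (adjusted p = 0.0326). In the 4 diet comparisons both probes had differences below 0, from -0.15 to -1.02.

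**Figure D3:**
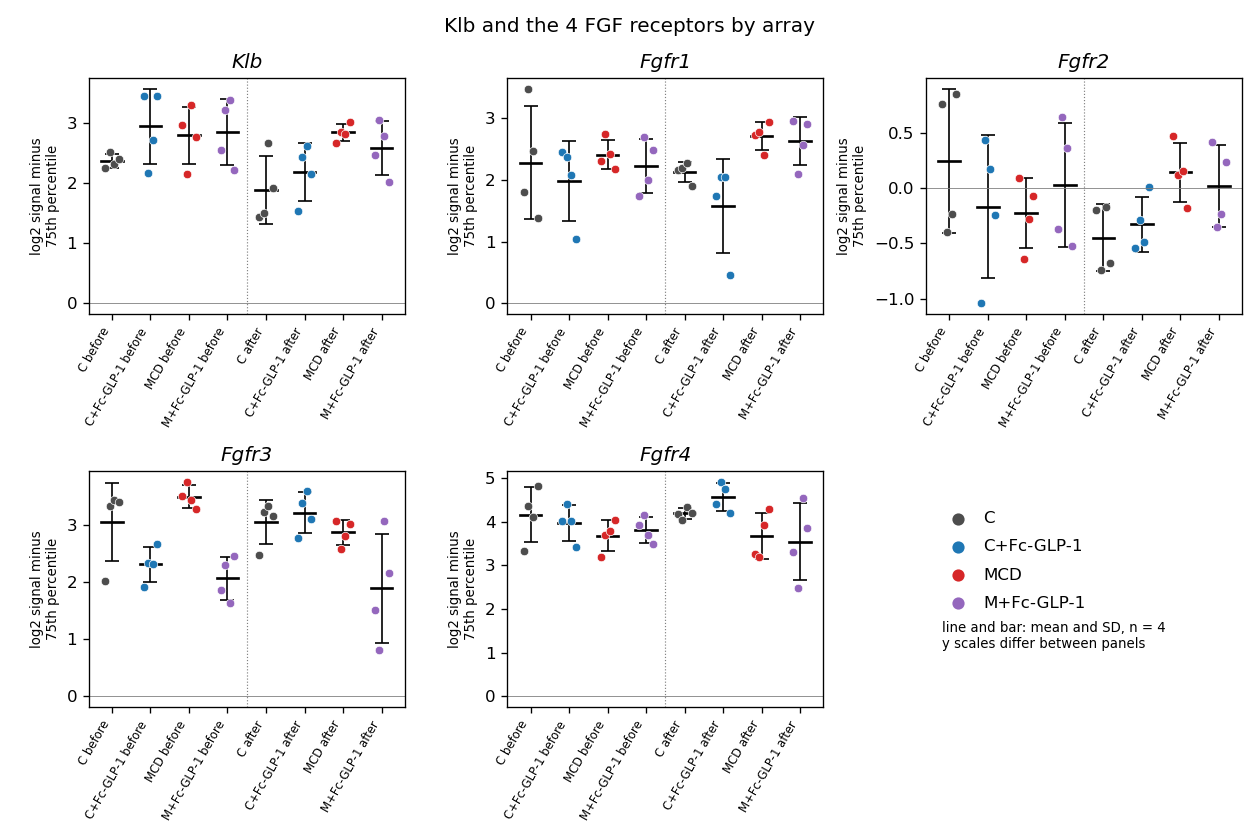
Levels of Klb and the 4 FGF receptors by array (log2 signal minus the array's 75th percentile; points, single arrays; line and bar, mean and SD of 4). Each panel has its own scale, and group means within a panel differ by at most 1.61 (Fgfr3).

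**Figure D4:**
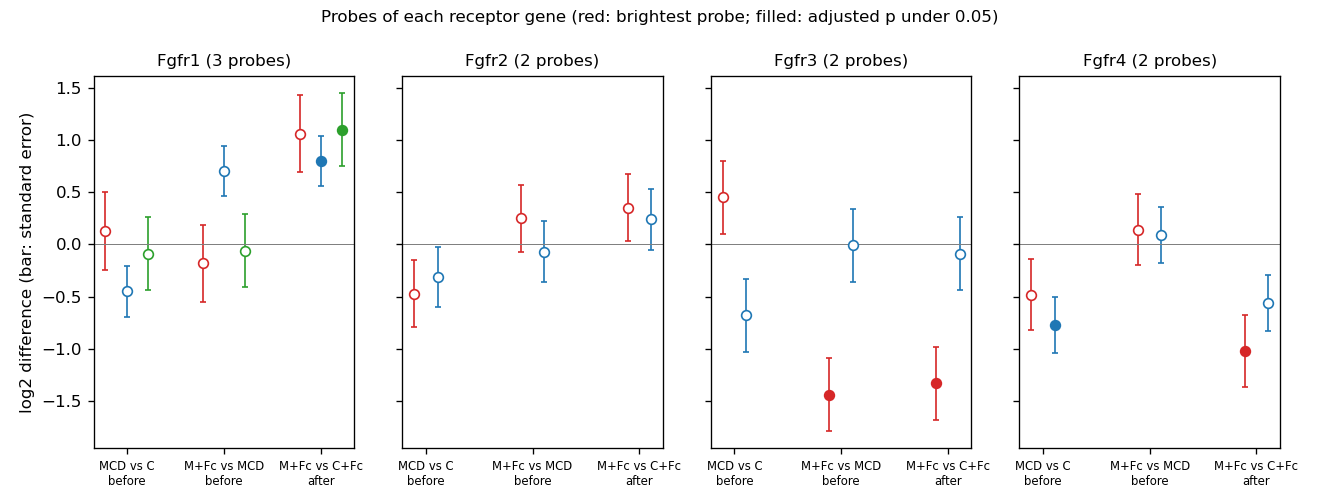
Log2 difference (vertical axis; bar, standard error) of every tested probe of the 4 receptor genes in 3 comparisons; red marks the brightest probe and filled symbols an adjusted p under 0.05 over all probes. The Fgfr3 probes part, at -1.44 and -0.01 in M+Fc-GLP-1 against MCD before PH, while the 3 Fgfr1 probes move together after PH (0.80 to 1.10).

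FGF21 is inactivated in the circulation by fibroblast activation protein (Fap), and dipeptidyl peptidase 4 (Dpp4) trims it. Both genes were tested, and neither was called by limma in any of the 12 comparisons of groups. An unadjusted p under 0.05 was found in 6 of these 24 tests. Over all 21073 genes, 3095 to 8157 had such a p in each of these comparisons, so 6 of 24 was near the general share. Fap was detected on 27 of 32 arrays, with means between -3.84 (MCD after PH) and -2.26 (C+Fc-GLP-1 after PH). Its largest difference was 1.28 ± 0.49 in M+Fc-GLP-1 against MCD after PH (adjusted p = 0.117). Dpp4 ran from 1.82 (MCD before PH) to 3.22 (C+Fc-GLP-1 before PH), and its largest difference was -0.97 ± 0.39 in MCD against C after PH (adjusted p = 0.102).

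Of 21 other FGF ligands and surface partners listed, 12 were tested and 9 were too dim. Fgf15, Fgf10 and Kl, the latter the co-receptor of FGF23, were well above background on 0 arrays. Fgf1, a ligand of all FGF receptors, was higher by 1.78 ± 0.31 with the drug on the MCD diet before PH (adjusted p = 0.00115). There 2 of the 12 genes rose and 0 fell, against 7.22% of all genes called. In the 4 diet comparisons, in the order MCD against C and M+Fc-GLP-1 against C+Fc-GLP-1 before PH and then the same pair after PH, 0, 2, 1 and 2 of the 12 rose and 3, 0, 0 and 0 fell, while 26.4%, 10.4%, 12.1% and 12.8% of all genes were called. The share of 3 in 12 was near that of all genes, and those falls ranged from 0 to 5 across the alternatives. Gpc1, a heparan sulfate proteoglycan that binds FGFs, rose in 3 of them, by 2.43 (M+Fc-GLP-1 against C+Fc-GLP-1 before PH), 2.86 (MCD against C after PH) and 2.30 (M+Fc-GLP-1 against C+Fc-GLP-1 after PH). Fgfrl1, a receptor without a kinase domain, rose by 1.11 and 1.13 in the 2 comparisons under Fc-GLP-1. Fgf23 fell by 1.43 and Sdc4 by 1.19 in MCD against C before PH.

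Genes of the ATF4 program were called mostly higher on the MCD diet, as Fgf21 was. Of 22 tested targets (24 listed), 11 rose and 1 fell in MCD against C before PH, where 26.4% of all genes were called. The median difference was 1.08 against -0.13 over all genes. After PH the same comparison gave 11 rises, 1 fall and a median of 1.07 against -0.03, with 12.1% of all genes called. Under Fc-GLP-1, 7 rose and 0 fell both before PH (median 0.48, all genes 0.04, 10.4% of them called) and after PH (median 0.65, all genes -0.01, 12.8% of them called). Psat1, an enzyme of serine synthesis, rose by 5.91, 3.87, 4.47 and 4.61 in these comparisons, in the order used for the FGF partners above. Nupr1, a stress-induced chromatin protein, rose by 6.03, 3.63, 3.45 and 2.45. Shmt2, a mitochondrial serine hydroxymethyltransferase, fell by 1.28 in the first of them, and Cth, an enzyme of cysteine synthesis, by 1.53 in MCD against C after PH. Trib3, a pseudokinase induced by ATF4, rose by 3.28 in the last of them.

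On the MCD diet before PH, 4 of the 22 ATF4 targets were lower with the drug (0 rose, median -0.63, all genes 0.10, 7.22% of them called). Across the alternatives 3 to 9 were lower. The compared groups lay on different slides, so drug and slide cannot be told apart. The macrophage and the stellate cell sums, given with Fgfr3, were lower too, and their part was not tested. Mthfd2, a mitochondrial enzyme of folate metabolism, fell by 2.11, and Asns, asparagine synthetase, by 1.78. Trib3 and Ddit3, the latter encoding the stress factor CHOP, completed the 4. Fgf21 was at -0.67 in the same comparison and was not called. After PH the comparison gave 1 rise (Stc2, 1.97) and 1 fall (Mthfd2, -2.11), against 6.5% of all genes called. Stc2 was detected on 14 of 32 arrays, with means of -5.40 in MCD and -3.43 in M+Fc-GLP-1 after PH. Mthfd2 was detected on 25 arrays, so both differences rest partly on signal near background.

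Of the 24 ATF4 targets, 21 had an upstream window and 6 of them held the CARE that stands before Fgf21, a match found in 3.44% of all promoters. The list was of known ATF4 targets, and the share of 6 in 21 was not tested. The sites of the 4 whose genes rose in MCD against C before PH are shown beside that of Fgf21, each with 10 bases on either side in the gene's direction (RefSeq, GRCm38.p6), with the CARE in capitals.
Fgf21, chr7:45615612-45615640: agacccccccATTGCATCAtccgtccagg
Nupr1, chr7:126625563-126625591: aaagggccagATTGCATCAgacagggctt
Asns, chr6:7693214-7693242: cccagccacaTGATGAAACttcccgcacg
Atf3, chr1:191183426-191183454: ccttctcgcaCTTGCATCAccaagtccgc
Vldlr, chr19:27216809-27216837: agcagcaataGTTGCATCAgcgctcctag
The match lay on the opposite strand in all but Asns. Asns rose by 5.29 (adjusted p = 2.38e-09), Atf3, itself a stress transcription factor, by 3.75 (adjusted p = 0.00268), and Vldlr, the very low density lipoprotein receptor, by 1.72 (adjusted p = 0.0112) in that comparison. The other 2 with a match were Chac1, a glutathione-degrading enzyme that gave 0.19 (adjusted p = 0.818), and Slc7a11, which was too dim to be tested. Atf3, Vldlr, Chac1 and Slc7a11 were named for their promoter, after their values were seen. The 4 sites shown were picked by the rise of their genes. The other genes of the 11 that rose, Psat1 (5.91) among them, had no match found or no window. Whether match and rise went together was not tested. Of 16 PPAR alpha targets with a window, 0 held a CARE and 0 the direct repeat. Over all promoters these stand in 3.44% and 0.0335%. Finding 0 of 16 was thus likely beforehand for the direct repeat and not unlikely for the CARE. It shows no contrast with the ATF4 targets, of whose 21 windows 0 held the direct repeat.

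PPAR alpha targets were called higher on the MCD diet under Fc-GLP-1 at both times and, without it, mostly higher after PH and in both directions before PH. Of 23 tested (24 listed), 13 rose and 0 fell in M+Fc-GLP-1 against C+Fc-GLP-1 before PH (median 1.0, all genes 0.04, 10.4% of them called). After PH 10 rose and 0 fell (median 0.89, all genes -0.01, 12.8% of them called). Without the drug, 4 rose and 3 fell before PH (median 0.00, all genes -0.13), a share near the 26.4% of all genes. After PH 8 rose and 1 fell (median 0.57, all genes -0.03, 12.1% of them called). Acot3, a peroxisomal acyl-CoA thioesterase, rose by 6.0 and 4.87 under the drug and by 3.04 and 3.48 without it. Cyp4a14, a fatty acid omega-hydroxylase, rose by 4.32 and 4.72 under the drug. Acot1 and Acaa1b, enzymes of acyl-CoA hydrolysis and peroxisomal beta-oxidation, fell by 2.97 and 2.44 in MCD against C before PH. On the MCD diet before PH 3 of the 23 were higher with the drug and 0 lower, against 7.22% of all genes called. Acot3 was at 2.56 and Acot1 at 2.29, and 0 to 10 rose across the alternatives.

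**Figure D5:**
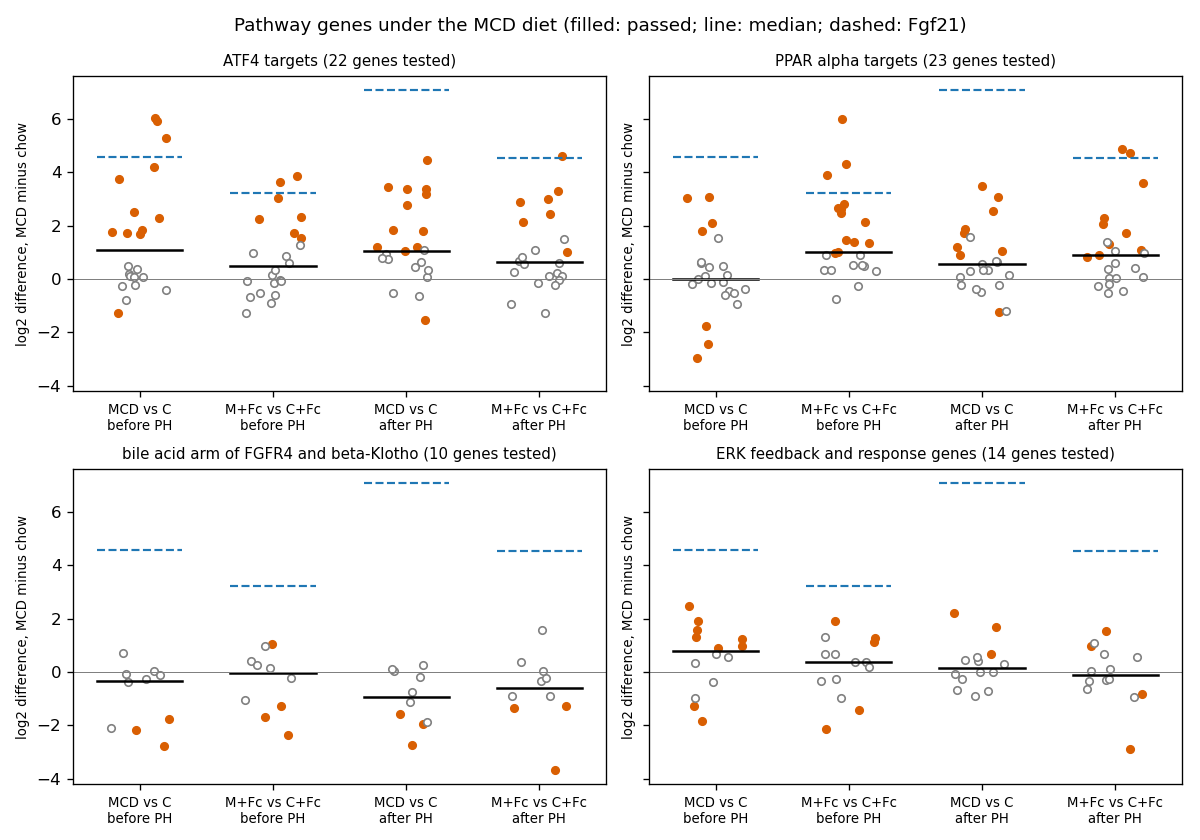
Log2 difference, MCD-fed minus chow-fed, of the tested genes of 4 lists (points; filled, adjusted p under 0.05; line, list median) in the 4 diet comparisons, with the Fgf21 difference dashed. ATF4 targets have medians of 0.48 to 1.08, and bile acid genes medians of -0.04 to -0.93, of which that before PH without the drug (-0.32) turned to 0.04 with centring on the median.

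Among 17 tested regulators of Fgf21 transcription (18 listed), few were called. In the 4 diet comparisons, in the same order, 2, 4, 3 and 2 rose and 2, 1, 2 and 2 fell, against 26.4%, 10.4%, 12.1% and 12.8% of all genes called. In the first of these the 4 calls of 17 were near that share. Ddit3 (2.29) and Nfe2l2, the antioxidant response factor (1.07), rose in MCD against C before PH. Srebf1, the lipogenic factor SREBP-1, fell in all of these comparisons, by 1.69, 1.17, 1.59 and 1.5. Ppara itself rose by 1.39 in M+Fc-GLP-1 against C+Fc-GLP-1 before PH and by 1.22 in MCD against C after PH. Ppargc1a, a coactivator of PPAR alpha, was 1.68 higher with the drug on the MCD diet before PH. Nr1d1, a clock repressor, fell by 2.36 in C after PH compared with before, where 0 of the 17 rose and 3 fell, a share near the 14% of all genes called.

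Among listed genes of bile acid synthesis, transport and regulation, those called on the MCD diet were lower in all but 1 case. The part of FGFR4 and beta-Klotho in these differences was not tested. Of 10 tested, 0, 1, 0 and 0 rose and 3 fell in each of the 4 diet comparisons, and the first count was near the 26.4% of all genes called. Across the alternatives the falls numbered 3 to 4, 1 to 3, 0 to 4 and 1 to 4, and the list's median in MCD against C before PH changed from -0.32 to 0.04 with centring on the median. Cyp7b1, the oxysterol hydroxylase of the alternative pathway, fell by 2.77, 2.34, 2.72 and 3.67 in the same order. Cyp7a1, the rate-limiting enzyme of the classical pathway, fell by 1.94 in MCD against C after PH. Cyp27a1, which opens the alternative pathway, fell by 2.18 in MCD against C before PH. Nr0b2, the repressor SHP, fell by 1.67 in M+Fc-GLP-1 against C+Fc-GLP-1 before PH, and Abcb11, the bile salt export pump, by 1.35 in the same comparison after PH. Nr1h4, the bile acid receptor FXR, was the single gene that rose (1.05, under the drug before PH).

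Feedback and response genes of the ERK cascade, through which FGF receptors signal, were called in both directions. Of 14 tested (19 listed), 7 rose and 2 fell in MCD against C before PH (median 0.77, all genes -0.13, 26.4% of them called), and centring on the median gave 9 rises and 0 falls. Ier3 rose by 2.46 and Myc by 1.89, whereas the immediate early genes Fos and Ier2 fell by 1.82 and 1.29. In the other diet comparisons 3, 3 and 2 rose and 2, 0 and 2 fell, against 10.4%, 12.1% and 12.8% of all genes. The 3 rises in MCD against C after PH were lost in the authors' values, with only the groups compared and without C replicate 2. Without C replicate 1 before PH, 5 genes in place of 9 passed in the first comparison. Adaptors and kinases of the cascade (21 of 23 tested) gave 1, 0, 3 and 1 rises and 2, 2, 1 and 0 falls in the 4 diet comparisons. These were shares of 3, 2, 4 and 1 in 21, against 26.4%, 10.4%, 12.1% and 12.8% of all genes called. Frs2, the docking protein of FGF receptors, was 1.10 higher and Mapk3, which encodes ERK1, 0.88 lower in MCD against C before PH.

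Likeness to Fgf21 was taken as the highest Pearson correlation with Fgf21 over the 32 arrays among all tested genes. The genes were Fut1, a fucosyltransferase (0.92), Bex2 (0.89), Intu, a planar polarity effector (0.89), Mfsd2a, a lysophospholipid transporter (0.88), and Inhbe, which encodes the hepatokine activin E (0.87). Mfsd2a stood at 2.56 ± 0.73 in C and 6.76 ± 0.31 in MCD before PH and at 1.12 ± 1.67 and 7.03 ± 0.47 after PH. Inhbe stood at 3.64 ± 0.28 and 5.18 ± 0.14 before PH and at 2.76 ± 0.61 and 4.75 ± 0.23 after PH. Fut1 was dim in C, at -4.17 ± 0.77 before and -5.07 ± 0.77 after PH. Bex2 was dim there too, at -3.05 ± 0.49 and -4.46 ± 0.92. Their correlations may thus rest partly on signal near background. After the group means were taken out, the correlations fell to 0.29, 0.27, 0.14, 0.45 and 0.59, so most of the likeness was between groups. These genes were chosen for the pattern, and no test was made on it. The receptors had no partner as close: the highest values were 0.77 for Klb (Ubn2), 0.74 for Fgfr1 (Rara) and 0.72 for Fgfr2 (Bri3), and the highest named gene was at 0.81 for Fgfr3 (Ttc27) and at 0.71 for Fgfr4 (Plk2).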

How the data were processed

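The labels describe 4 biological replicates per group, and each of the 32 arrays was scanned for 1 colour. Per the file headers, the deposited intensity values (gProcessedSignal) came from Agilent Feature Extraction 10.7.3.1, after background subtraction. The authors also deposited normalized log2 values made with limma, normalized separately before and after PH and used here as an alternative within each set only.

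Computed here: log2 of the intensity minus each array's 75th percentile over 59305 non-control spots. Spots flagged as outliers were left out, repeated spots were averaged, and a probe had to be well above background throughout 1 group or more. This left 28937 of 55681 probes, and the brightest stood for each of 21073 genes. Symbols came from RefSeq (GRCm38.p6) by accession for 27656 probes and otherwise from the array. limma 3.58.1 (R 4.3.3) fitted 8 groups, 12 comparisons and 4 interactions with Benjamini-Hochberg adjustment at 0.05, and was tested on simulated data. The number of arrays limits the precision.

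The members and gene lists were chosen with earlier results of these data known. Named genes were the 6 members, up to 2 per list, comparison and direction with the largest called change, both FGF21 proteases, and those most correlated with a member. Other markers were used only as sums. Same-numbered replicates of different groups did not deviate together on average (mean correlation 0.02, against -0.01 for different numbers). That average pooled 112 pairs over all groups, so it cannot show whether before and after samples came from the same mice. Samples were treated as unpaired. Alternatives were normexp with an offset of 50 and quantile normalization, median centring, the percentile over 17895 probes well above background on all arrays, the authors' values, dim probes kept, a gene's probes averaged, only the groups compared, a replicate block, and leaving out each array.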

Additional observations from a re-analysis of the deposited data

Results flagged for a closer look

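In 48 groups of 4 arrays (6 genes in 8 groups), 2 had a sample far from the others by Dixon's ratio, and chance would flag about 1 in 20. Fgf21 in C+Fc-GLP-1 before PH had replicate 2 at -1.0, below the other 3 (0.86 to 1.22). Fgfr3 in C before PH had replicate 1 at 2.03, below the other 3 (3.34 to 3.44). Of 24 interactions of the members with diet, drug or PH, 0 passed in limma, and 5 had an unadjusted p under 0.05. Over all 21073 genes, 1835 to 5004 had such a p in each of the 4 interactions, so 5 of 24 lay within the general shares.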

How the results depend on the processing

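For Fgf21, the diet effect kept its direction and its call in all 16 alternatives of each of the 4 diet comparisons, at 4.25 to 4.99, 2.71 to 3.45, 5.73 to 7.22 and 3.79 to 5.02 in the order of the report, and so did the fall after PH in C (-3.42 to -1.89 in 15 alternatives). No alternative separates slide from diet in MCD against C after PH, or slide and scanner from time in C. Centring on the median, which shifts all genes of an array alike, gave 4.92 in place of 4.56 in MCD against C before PH. The drug comparisons of Fgf21 stayed without a call in all alternatives but 1: C+Fc-GLP-1 against C after PH ranged from 1.15 to 2.26 when 1 array was left out, with a call at 2.26, without C+Fc-GLP-1 replicate 4. The Fgf21 difference after against before PH in C+Fc-GLP-1 lost its call with only the groups compared (-2.27, adjusted p = 0.171) and ranged from -2.79 to -1.65 when 1 array was left out. The interaction of diet and PH without the drug gained a call with only the groups compared (2.51, adjusted p = 0.0236). With the replicate block, Fgf21 in MCD against C before PH gave 4.56 (adjusted p = 1.45e-06) and after PH 7.06 (adjusted p = 2.28e-09), and among the members the block changed a call only for Fgfr1 in M+Fc-GLP-1 against C+Fc-GLP-1 after PH (1.06, adjusted p = 0.0432).

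In MCD against C before PH, uncalled differences changed sign for Fgfr1 (-0.14 with the mean over its probes, and -0.17 to 0.53 over all alternatives) and Fgfr3 (-0.11 with that mean). The cause was not tested, beyond the probe values given. Brightest-probe Fgfr3 was called lower in C+Fc-GLP-1 than in C before PH with normexp (-1.57, adjusted p = 0.00793) and in the authors' values (-1.57, adjusted p = 0.0113). Over all genes, calls ranged, from the lowest to the highest alternative, from 48 to 2454 (444 as reported) in C+Fc-GLP-1 against C before PH, 546 to 6761 (1521) in M+Fc-GLP-1 against MCD before PH, 1308 to 2514 (2183) in M+Fc-GLP-1 against C+Fc-GLP-1 before PH, 1611 to 3003 (2555) in MCD against C after PH, 69 to 594 (434) in C+Fc-GLP-1 against C after PH, 691 to 1418 (1369) in M+Fc-GLP-1 against MCD after PH, and 1786 to 2875 (2703) in M+Fc-GLP-1 against C+Fc-GLP-1 after PH. After against before PH, they ranged from 1164 to 3111 (2942) in C, 19 to 1296 (176) in C+Fc-GLP-1 and 98 to 926 (361) in M+Fc-GLP-1. For the interactions they ranged from 522 to 2564 (1296) for diet and drug before PH, 0 to 14 (0) for diet and drug after PH, 274 to 832 (601) for diet and PH without the drug and 4 to 41 (20) for diet and PH with it. Signal over background limits Fap, Stc2, Mthfd2 and the ligands too dim to test, and may limit Fut1 and Bex2 in C livers.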
